A study of Mus musculus with 15 samples.

Results

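The genes described here are 8 markers of cholinergic motor neurons, taken by name from the 57180 Ensembl gene identifiers of the deposited brainstem tables. They are Chat (ENSMUSG00000021919), Slc18a3 (ENSMUSG00000100241), Slc5a7 (ENSMUSG00000023945), Prph (ENSMUSG00000023484), Isl1 (ENSMUSG00000042258), Isl2 (ENSMUSG00000032318), Mnx1 (ENSMUSG00000001566) and Tbx20 (ENSMUSG00000031965), and all 8 were found in both tables. PolyA RNA of brainstem tissue from C57BL/6 mice was sequenced in 15 libraries of 2 separate experiments. The AMPK experiment held 3 WT libraries (AMPK+/+) and 3 libraries labelled AMPK-/-, which the study calls a knockout of the AMPKα2 subunit. The Lmx1b experiment held 3 WT libraries (Lmx1b+/+), 3 labelled Lmx1b+/- and 3 labelled Lmx1b-/-, from prenatal mice. The study describes the homozygous loss as embryonic lethal. In the study's words the WT animals were littermates and the tissue was taken from the centres that control breathing. The labels name no treatment and no age, and the study's title speaks of neonatal mice. Neither source says how either allele was made, whether animals were pooled or whether each library came from its own animal, so the p-values below measure the spread between these libraries.

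Motor neurons of the brainstem drive the muscles of the face, jaw, tongue, pharynx and larynx, and supply the parasympathetic ganglia. They release acetylcholine, which is made by choline acetyltransferase (Chat), loaded into vesicles by the vesicular transporter VAChT (Slc18a3) and renewed through the choline transporter CHT (Slc5a7). Prph encodes peripherin, an intermediate filament of neurons with axons in the periphery. Isl1 and Isl2 are LIM homeodomain factors and Mnx1 (HB9) a homeodomain factor of motor neuron identity, and Tbx20 is a T-box factor of branchial and visceral motor neurons of the hindbrain. None of these genes marks motor neurons alone. Isl1 and Prph are also used by sensory and autonomic neurons, and Tbx20 by the heart. The acetylcholine genes are used by other cholinergic neurons too, those of the forebrain among them. In RNA of whole tissue, fewer cells of a type and less RNA per cell cannot be told apart.

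Total counts lay between 291212 and 17384171 per library in the AMPK experiment and between 28833130 and 37441679 in the Lmx1b experiment. WT 2 and AMPK-/- 3 were the shallow libraries, and a count of 0 there allows up to 9.98 and 9.07 CPM (counts-per-million of the library total, scaled by edgeR's TMM factors), against 0.175 to 0.198 in the other 4 libraries and at most 0.109 in the Lmx1b experiment. These limits, taken as 3 counts of the scaled total, cover counting error only. Lmx1b was at 1.45, 1.13 and 0.848 CPM in Lmx1b-/- 1 to 3 against 9.73 to 22.5 CPM in their WT libraries. In Lmx1b+/- 1 to 3 it was at 30.5, 11.9 and 14.3 CPM, and the difference from WT did not pass the test (log2 fold change 0.23, SE 0.33, edgeR adjusted p = 0.618). The counts of Lmx1b thus do not separate Lmx1b+/- from WT, and Lmx1b+/- is used as the label of a library. Prkaa2, which encodes the AMPKα2 subunit, was at 25.4, 22.3 and 12.1 CPM in AMPK-/- 1 to 3 and at 21.9, 26.6 and 29.7 CPM in WT 1 to 3, so the counts of this gene do not separate the genotypes, and AMPK-/- is used as the label of a library. The hindbrain Hox genes (8 genes) summed to between 26.4 and 55.9 CPM in the AMPK experiment and to between 51.1 and 148.5 CPM in the Lmx1b experiment. Lhx8, the factor that marks forebrain cholinergic neurons, had 0 counts in all 6 AMPK libraries and 0 to 39 counts in the Lmx1b libraries. These counts do not bear on cholinergic neurons outside the forebrain.

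The sequences just before the start sites of the acetylcholine genes, Prph and Isl1 are shown because the acetylcholine genes are set against Prph and Isl1, the members called in Lmx1b+/-, in what follows. Each line gives the 250 bases upstream of the RefSeq start in build GRCm38.p6, written 5′ to 3′ on the gene's own strand. Capitals mark 2 short motifs found on either strand, TGACG (the core of the element bound by CREB and ATF factors) and TATAAA (the box bound by TBP in many core promoters). The start of Slc18a3 is 1059 bases downstream of that of Chat, on the same strand and inside the Chat gene.
Chat, chr14:32465910-32466159, minus strand: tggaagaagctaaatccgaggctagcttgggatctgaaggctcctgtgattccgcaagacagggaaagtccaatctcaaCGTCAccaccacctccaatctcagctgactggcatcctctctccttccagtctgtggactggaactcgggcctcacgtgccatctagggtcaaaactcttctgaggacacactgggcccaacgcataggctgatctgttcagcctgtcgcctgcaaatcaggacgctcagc
Slc18a3, chr14:32464851-32465100, minus strand: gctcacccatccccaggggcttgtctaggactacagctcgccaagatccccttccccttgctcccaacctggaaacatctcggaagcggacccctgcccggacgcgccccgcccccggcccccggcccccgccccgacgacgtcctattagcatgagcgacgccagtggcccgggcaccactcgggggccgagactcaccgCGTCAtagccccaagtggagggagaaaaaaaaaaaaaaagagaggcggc
Slc5a7, chr17:54299035-54299284, minus strand: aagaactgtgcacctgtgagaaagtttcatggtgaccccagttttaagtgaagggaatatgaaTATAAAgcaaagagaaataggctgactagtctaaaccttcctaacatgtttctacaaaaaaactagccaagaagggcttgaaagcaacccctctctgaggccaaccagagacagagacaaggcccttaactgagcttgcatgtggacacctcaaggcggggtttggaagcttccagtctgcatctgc
Prph, chr15:99054924-99055173, plus strand: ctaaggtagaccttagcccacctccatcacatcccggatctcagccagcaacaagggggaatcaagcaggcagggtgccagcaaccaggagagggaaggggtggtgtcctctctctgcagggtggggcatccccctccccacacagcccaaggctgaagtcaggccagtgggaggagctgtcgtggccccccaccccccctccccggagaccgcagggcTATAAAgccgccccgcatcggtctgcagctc
Isl1, chr13:116309689-116309938, minus strand: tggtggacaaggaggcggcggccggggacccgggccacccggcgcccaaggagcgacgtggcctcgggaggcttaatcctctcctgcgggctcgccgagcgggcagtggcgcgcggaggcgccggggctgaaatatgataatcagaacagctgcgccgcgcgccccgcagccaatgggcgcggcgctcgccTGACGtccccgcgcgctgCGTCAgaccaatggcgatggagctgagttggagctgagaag

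The TATAAA of Prph began 31 bases before its start, and that of Slc5a7 began 187 bases before its start. TGACG was present once in the window of Chat, once in that of Slc18a3 and 2 times in that of Isl1. Over the 8 members, 5 windows held TGACG on either strand, which 17.8% of the 32851 windows of this length in the same table held, and 2 held TATAAA, against 12.4% of all windows. The homeodomain motif TAATTA was in 0 of the 8 windows and in 4.84% of all. The windows of the members ran from 45.6% GC in Slc5a7 to 71.2% in Isl1, against a median of 52.4% over all windows. A motif match here is a description of letters in the window.

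Compared per length, with the deposited RPKM (reads per kilobase of exon, scaled to the reads of the library), the acetylcholine transporters and Prph were the most abundant members, and the identity factors lay far below them, with Isl1 of the Lmx1b experiment as the exception. In the WT libraries of the Lmx1b experiment the order by mean level was Prph at 16.4 ± 4.66 RPKM, Slc18a3 at 4.77 ± 0.613, Slc5a7 at 4.41 ± 1.41, Isl1 at 1.37 ± 0.617, Chat at 0.457 ± 0.151, Tbx20 at 0.426 ± 0.148, Isl2 at 0.198 ± 0.0705 and Mnx1 at 0.0886 ± 0.0509 RPKM (SD, n = 3). Of the neighbours in this order, Prph lay above Slc18a3 and Isl1 above Chat in all 3 libraries without overlap, and Slc5a7 lay above Isl1 likewise, whereas Slc18a3 and Slc5a7 overlapped, as did Chat and Tbx20. Tbx20, Isl2 and Mnx1 did not overlap but were nearly touching: the highest Isl2 value was 0.267 RPKM and the lowest of Tbx20 0.274 RPKM, and the highest Mnx1 value was 0.124 RPKM and the lowest of Isl2 0.127 RPKM. In the AMPK-/- libraries the order was Prph at 22.9 ± 10.2, Slc5a7 at 16.02 ± 6.28, Slc18a3 at 8.41 ± 2.09 and Chat at 3.89 ± 1.14 RPKM (SD, n = 3), with the 4 transcription factors at mean levels of 0.605 RPKM or less. There the levels of Prph and Slc5a7 overlapped, those of Slc18a3 ended at 10.4 RPKM just under the lowest Slc5a7 value of 10.5 RPKM, and those of Chat lay below all Slc18a3 values. In the WT libraries of the AMPK experiment the SD was 66.7% to 173% of the mean CPM, and from Slc5a7 down to Mnx1 every pair of neighbours in RPKM overlapped. Isl2 and Mnx1 had at most 24 and 20 counts in any library.

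The question put to the AMPK experiment was which genes differ in the brainstem with the loss of the AMPKα2 subunit. Prph, Slc5a7 and Tbx20 were higher in AMPK-/- than in WT, by 2.02, 1.60 and 2.24 on the log2 scale, and Chat, Slc18a3 and Isl1 had positive differences that did not pass the test. WT 1 was by far the lowest library for this group of genes: its 8 members summed to 13.2 CPM, against 93.2 and 108.1 CPM in WT 2 and 3 and 256.8, 131.7 and 175.3 CPM in AMPK-/- 1 to 3. Of the 8 members, 6 passed the filter on low counts and were tested, and 3 of these 6 were called higher and 0 lower at an adjusted p under 0.05, where 3.77% of the 17397 tested genes were called higher, 5.17% lower and 8.94% in either direction. At an unadjusted p under 0.05 the members were 5 of 6, against 24.6% of all tested genes. These counts describe the members that passed the filter, not all 8. Isl1 and Tbx20 passed it with few counts, most of them in AMPK-/- (86 and 78, against 18 and 16 in WT). Their place among the 6 thus leaned in part on the genotype where they were higher, and the share called is no test of the members as a group.

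Slc5a7, the transporter that returns choline to the nerve terminal, had 6.39, 63.2 and 50.2 CPM in the libraries WT 1 to 3, with 97, 19 and 860 counts behind them. AMPK-/- 1 to 3 had 132.5, 66.5 and 84.6 CPM of it, with 2006, 1026 and 28 counts. The genotypes did not overlap, but WT 2 and AMPK-/- 2 lay close together, and WT 1 stood well under the rest. The log2 fold change was 1.60 (SE 0.44, edgeR quasi-likelihood adjusted p = 0.0291). Groups apart in this direction were found for 2 of the 6 tested members (Slc5a7 and Prph) and in 13.9% of all tested genes.

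Chat, which makes acetylcholine, was at 1.51, 3.33 and 13.8 CPM in WT 1 to 3 and at 22.5, 13.7 and 21.2 CPM in AMPK-/- 1 to 3. Its counts were 23, 1 and 236 in WT and 341, 211 and 7 in AMPK-/-. WT 3 lay within the range of the AMPK-/- libraries, so the groups overlapped, and the difference did not pass the test (log2 fold change 1.30, SE 0.48, adjusted p = 0.0912). Slc18a3, the vesicular transporter, was at 1.71, 6.66 and 21.1 CPM in WT 1 to 3 and at 25.8, 16.9 and 21.2 CPM in AMPK-/- 1 to 3. It also overlapped through WT 3, and its log2 fold change was 0.93 (SE 0.50, adjusted p = 0.256), with a 95% interval from -0.05 to 1.91.

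Prph had the strongest call. It was at 3.23, 16.6 and 19.9 CPM in WT 1 to 3 and at 68.5, 29.1 and 45.3 CPM in AMPK-/- 1 to 3, with every AMPK-/- library above every WT library. The log2 fold change was 2.02 (SE 0.42, adjusted p = 0.00627), and it stayed past the threshold when any 1 of the 6 libraries was left out, with values from 1.31 to 3.67.

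The transcription factors were near the detection limit in this experiment. Isl1 had 0, 0 and 18 counts in WT 1 to 3 and 61, 25 and 0 counts in AMPK-/- 1 to 3, or 0, 0 and 1.051 CPM against 4.03, 1.62 and 0 CPM. The genotypes overlapped, and the log2 fold change of 2.31 (SE 0.78, adjusted p = 0.0574) rests on few counts. Tbx20 had 2, 1 and 13 counts in WT 1 to 3 and 31, 47 and 0 counts in AMPK-/- 1 to 3. Its mean level was 1.41 ± 1.69 CPM in WT and 1.70 ± 1.55 CPM in AMPK-/- (SD, n = 3), since the single count of WT 2 comes to 3.33 CPM, while the fit, which weights libraries by their counts, gave a log2 fold change of 2.24 (SE 0.68, adjusted p = 0.0380). Isl2 had 3, 0 and 15 counts in WT and 12, 5 and 0 in AMPK-/-, and Mnx1 had 0, 0 and 9 in WT and 9, 9 and 1 in AMPK-/-. Neither passed the filter, and neither was tested. Isl2 overlapped between the genotypes. Mnx1 had at most 0.525 CPM in WT and at least 0.583 CPM in AMPK-/- and so did not overlap, but the 0 counts of WT 2 allow up to 9.98 CPM and the gap between 9 and 9 counts in deep libraries is within counting error.

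**Figure D1:**
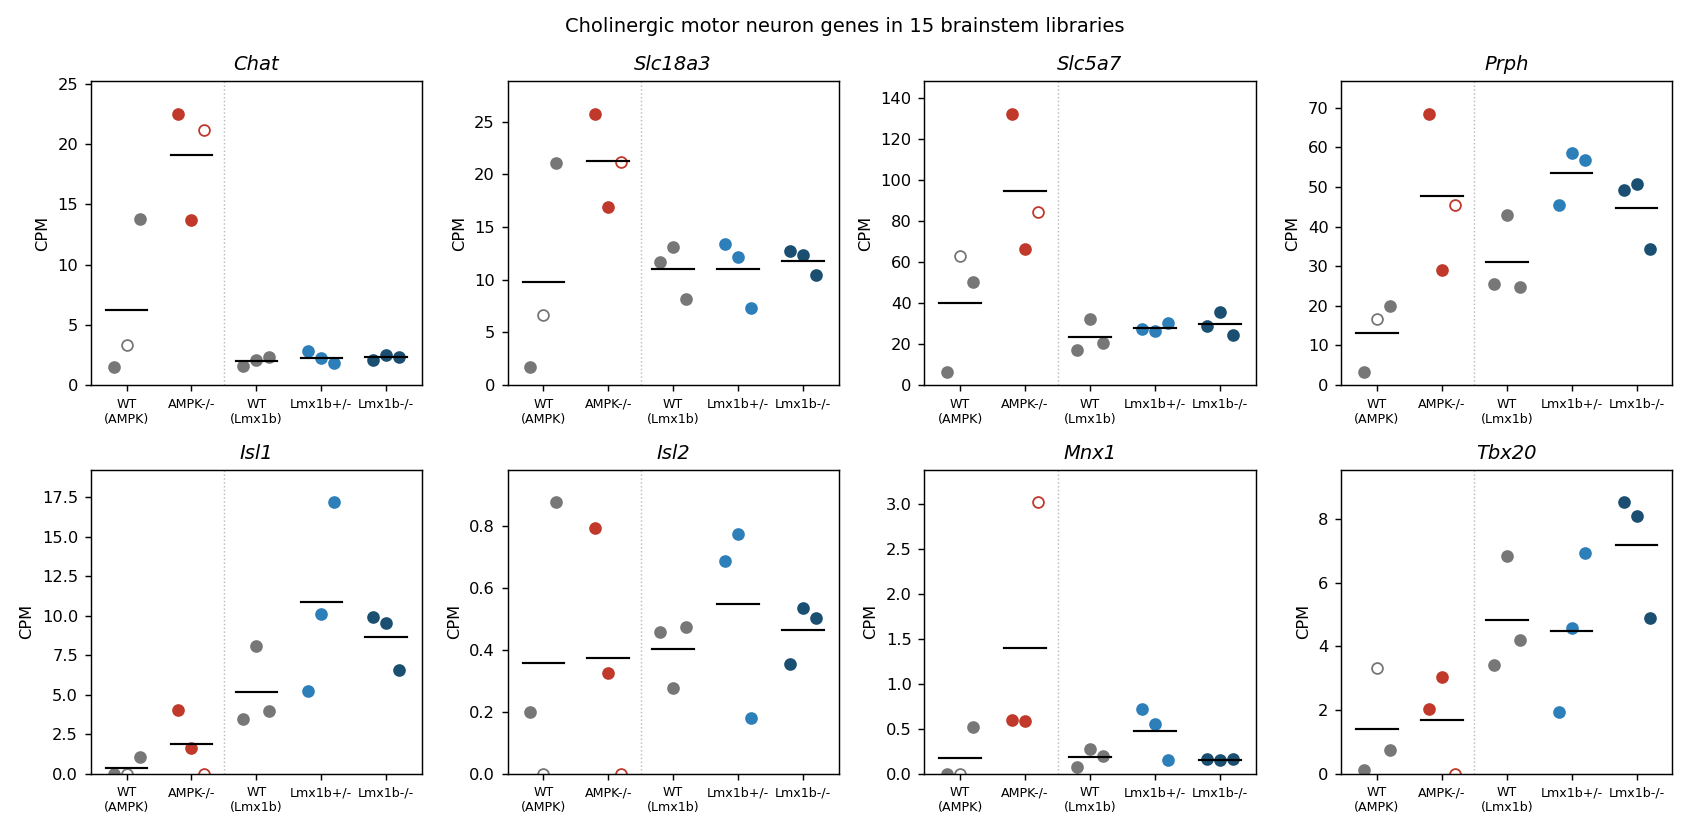
Level of each of the 8 genes in CPM (y axis, from 0, a scale of its own per panel) in the 15 libraries, by genotype, with replicates 1 to 3 from left to right in each group. Filled points are deep libraries, open points the shallow libraries (WT 2 and AMPK-/- 3), horizontal lines group means, and the dotted line parts the 2 experiments, which were scaled separately. Chat lies between 1.55 and 2.79 CPM in the Lmx1b experiment and reaches 22.5 CPM in the AMPK experiment, and WT 1 of the AMPK experiment is the lowest of its deep libraries in every panel.

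Single libraries decided much of this comparison. With 1 library left out, the log2 fold change ran from 0.53 to 3.55 for Chat, from 0.16 to 3.51 for Slc18a3, from 0.88 to 3.25 for Slc5a7, from 1.41 to 7.65 for Isl1 and from 1.48 to 3.44 for Tbx20. For all 5 genes the lowest value was without WT 1 and the highest without WT 3, which for Isl1 leaves WT at 0 counts, so that 7.65 is no measure of a fold. Among the 4 deep libraries, WT 1 was the lowest for 8 of 8 members and AMPK-/- 1 the highest for 6. The number of members called was 3 with all libraries, 2 without WT 1 (Slc5a7 and Prph), 1 without WT 2 and 1 without AMPK-/- 3 (Prph both times), 3 without AMPK-/- 1, 5 without AMPK-/- 2 and 6 without WT 3. Without both shallow libraries it was 0, with 4 members at an unadjusted p under 0.05, and the log2 fold changes of Prph, Slc5a7 and Tbx20 were then 2.07, 1.82 and 2.47. DESeq2 gave an adjusted p for 2 of the members and called 0 of them, while it called 8.39% of the 7950 genes to which it gave one. Over the members, those without an adjusted p included, 1 had an unadjusted DESeq2 p under 0.05.

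Markers of other tissue also differed between these libraries. The 16 skeletal muscle genes summed to 1085 CPM in WT 3, where all 16 had counts, against 9.45 to 22.7 CPM in the other 5 libraries, and 7 of the 7 muscle genes tested were lower in AMPK-/- (Cmya5, Neb and Myh1 by 3.35, 6.09 and 6.00 on the log2 scale, edgeR adjusted p = 0.000731, 0.00158 and 0.00176). The 15 spinal Hox genes, which mark the cervical and more caudal cord, summed to 25.6 CPM in AMPK-/- 1 and to between 93.2 and 181.5 CPM in the other 5 libraries. Within them Hoxb8 was at 3.30 CPM in AMPK-/- 1 and at 36.3 CPM or more elsewhere, and was chosen for mention after its values were seen. The 11 sensory ganglion genes found summed to 51.3 CPM in AMPK-/- 1 and to between 12.9 and 33.3 CPM in the other 5. Pou4f1, a factor of sensory and midbrain neurons, made up 44.6 CPM of this in AMPK-/- 1, and the other 10 genes summed to 6.74 CPM there and to between 5.25 and 13.3 CPM elsewhere, so that the list apart from Pou4f1 was not higher in that library. Pou4f1 was called higher in AMPK-/- (log2 fold change 1.99, SE 0.47, adjusted p = 0.0138), although AMPK-/- 2 and 3 were at 7.64 and 9.07 CPM and WT 2 at 20.0 CPM. Tlx3, a factor of sensory relay neurons, was lower by 2.13 (SE 0.67, adjusted p = 0.0459). Scn10a, a sodium channel of sensory ganglia, had 0 counts in all 3 AMPK-/- libraries and at most 3 in WT. The 9 cardiac genes summed to at most 11.3 CPM, with Nkx2-5 and Hand2 at 0 counts in all 6 libraries. The part that the muscle, Hox and Pou4f1 levels of WT 3 and AMPK-/- 1 have in the members' differences was not tested, and the counts without each of these libraries are those above.

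Other genes of the motor neuron program moved unevenly with the AMPK-/- label. Of 18 other effector genes, all tested, 5 were higher and 1 lower, and the median log2 fold change was 0.31, against -0.01 over all tested genes. The calls with the smallest adjusted p were Sncg, which encodes γ-synuclein, higher by 2.37 (SE 0.25, adjusted p = 1.72e-05), Calca, which encodes the neuropeptide CGRP, higher by 1.40 (SE 0.27, adjusted p = 0.00365), and Agrn, which encodes the agrin that clusters receptors at the neuromuscular synapse, lower by 1.04 (SE 0.21, adjusted p = 0.00425). The neurofilament genes of the same list were not called. Of 11 other motor neuron factors, 10 were tested and 2 were higher, among them Gata3, by 2.07 (SE 0.65, adjusted p = 0.0463). Of 8 progenitor factors, 7 were tested and only Nkx6-1 was called (log2 fold change 1.83, SE 0.54, adjusted p = 0.0404). Its levels were 10.3, 2.07 and 6.04 CPM in AMPK-/- 1 to 3, with 156, 32 and 2 counts. WT 2 and 3 had 6.66 and 2.04 CPM of Nkx6-1, so the genotypes overlapped. The highest level and most of the AMPK-/- counts of Nkx6-1 were thus those of AMPK-/- 1. The progenitor list summed to 244.6 CPM in WT 1, of which Olig1 made up 163.3 CPM, and to between 164.3 and 241.1 CPM in the other libraries. Nkx6-1 was lowest in WT 1, at 1.119 CPM, and the effector list was also lowest there, at 2094 CPM against 2343 to 3506 CPM in the other 5 libraries.

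The genes that break down or take up the products of acetylcholine, including Ache, showed 0 calls among 7 tested by edgeR, with 2 at an unadjusted p under 0.05. Of 12 neuronal acetylcholine receptor genes tested of 16, 2 nicotinic subunits were higher and 0 lower: Chrna3 (log2 fold change 2.12, SE 0.38, adjusted p = 0.00205) and Chrna5 (2.62, SE 0.79, adjusted p = 0.0291). Of the 5 muscle receptor genes 1 was tested, and of the 18 forebrain cholinergic and striatal genes 8, with 0 calls in each by edgeR, and 0 at an unadjusted p under 0.05. Among the Schwann cell genes, 0 of 5 tested were called and 1 had an unadjusted p under 0.05.

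**Figure D2:**
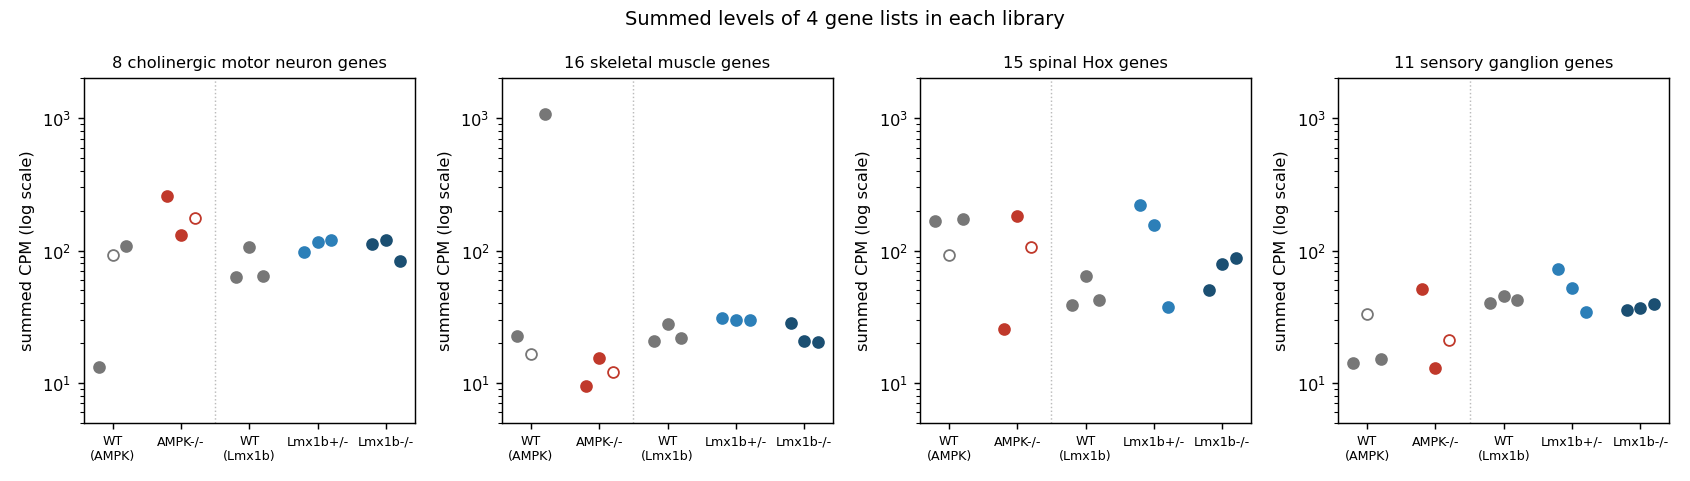
Summed level of 4 gene lists in each library (y axis, summed CPM on a log scale), by genotype and replicate as in the plot of single genes, with open points for the shallow libraries. WT 1 of the AMPK experiment is lowest for the members at 13.2 CPM, WT 3 reaches 1085 CPM for skeletal muscle genes, AMPK-/- 1 is at 25.6 CPM for spinal Hox genes, and Lmx1b+/- 1 and 2 are at 220.6 and 155.1 CPM for the same genes.

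The Lmx1b experiment asked which genes of the prenatal brainstem differ with the loss of 1 or both copies of Lmx1b, a LIM homeodomain factor of serotonergic and dorsal neurons. In Lmx1b+/- libraries, Prph and Isl1 were higher than in WT, by 0.79 and 1.08 on the log2 scale, and the 3 acetylcholine genes were not. Of the 8 members 7 were tested, and 2 were called higher and 0 lower, where 19.4% of the 21729 tested genes were called higher, 17.3% lower and 36.7% in either direction. A share of 2 in 7 is near this background and is no result about the members as a group.

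Prph was at 25.5, 42.8 and 24.6 CPM in WT 1 to 3 and at 45.5, 58.5 and 56.8 CPM in Lmx1b+/- 1 to 3. The groups did not overlap, though WT 2 came close to Lmx1b+/- 1, and groups apart in this direction were found in 23.4% of all tested genes. The log2 fold change was 0.79 (SE 0.20, edgeR adjusted p = 0.00836), and it stayed past the threshold when any 1 of the 9 libraries was left out, with values from 0.66 to 1.10.

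Isl1 was at 3.45, 8.10 and 3.94 CPM in WT 1 to 3 and at 5.25, 10.1 and 17.2 CPM in Lmx1b+/- 1 to 3. The groups overlapped, since WT 2 lay above Lmx1b+/- 1, and Lmx1b+/- 3 was the highest of the 9 libraries. The log2 fold change was 1.08 (SE 0.38, adjusted p = 0.0398). It did not pass without Lmx1b+/- 3 (0.59, adjusted p = 0.262), without Lmx1b+/- 2 (adjusted p = 0.0538), without WT 1 (adjusted p = 0.139) or without WT 3 (adjusted p = 0.128), and DESeq2, which called 37.2% of all genes and only Prph of the members, gave an adjusted p of 0.0931.

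The acetylcholine genes differed less than their libraries spread. Chat was at 1.55, 2.04 and 2.34 CPM in WT 1 to 3 and at 2.79, 2.23 and 1.83 CPM in Lmx1b+/- 1 to 3 (log2 fold change 0.19, SE 0.23, adjusted p = 0.543). Slc18a3 had 11.7, 13.1 and 8.18 CPM in the WT libraries against 13.4, 12.1 and 7.35 CPM in Lmx1b+/- (log2 fold change 0.00, 95% interval -0.42 to 0.43, adjusted p = 0.998). Slc5a7 had 17.1, 32.4 and 20.7 CPM in the WT libraries against 27.5, 26.3 and 30.3 CPM in Lmx1b+/- (log2 fold change 0.26, 95% interval -0.13 to 0.65, adjusted p = 0.325). All 3 genes overlapped between the genotypes, and the Slc5a7 difference passed the test only when WT 2 was left out (0.57, adjusted p = 0.0174).

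The other identity factors did not pass the test in Lmx1b+/-. Tbx20 had 3.41, 6.82 and 4.21 CPM in the WT libraries against 1.95, 4.58 and 6.93 CPM in Lmx1b+/- 1 to 3 (log2 fold change -0.09, SE 0.37, adjusted p = 0.876). Isl2 had 0.457, 0.277 and 0.473 CPM in the WT libraries against 0.688, 0.774 and 0.180 CPM in Lmx1b+/- (log2 fold change 0.41, SE 0.49, adjusted p = 0.540). Mnx1, which did not pass the filter, had 2, 8 and 9 counts in WT and 20, 17 and 5 in Lmx1b+/-. Isl2 and Mnx1 were thus lowest in Lmx1b+/- 3 within this genotype, where Isl1 and Tbx20 were highest. Without Lmx1b+/- 3, Mnx1 was tested and was called higher. The spinal Hox genes divided these libraries in the same way, at 220.6 and 155.1 CPM in Lmx1b+/- 1 and 2 and at 37.7 CPM in Lmx1b+/- 3, against 38.6 to 64.0 CPM in WT and 50.4 to 87.7 CPM in Lmx1b-/-. Hoxa7, Hoxc5 and Hoxb9 led the 6 of 7 tested spinal Hox genes that were higher in Lmx1b+/-, by 3.66, 1.68 and 4.44 on the log2 scale (edgeR adjusted p = 0.00198, 0.00437 and 0.00881), and 4 of 8 hindbrain Hox genes were also higher, led by Hoxb3, Hoxa2 and Hoxb2 (0.81, 0.81 and 0.97). The 11 sensory ganglion genes summed to 72.2, 51.9 and 34.2 CPM in Lmx1b+/- 1 to 3 and to between 40.3 and 45.3 CPM in WT, but without Pou4f1 they summed to 16.5, 16.6 and 13.1 CPM against 14.7 to 19.2 CPM. The part of these levels in the differences of Isl1, Isl2, Mnx1 and Prph was not tested, and Prph stayed called without each of the 3 Lmx1b+/- libraries.

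Within the wider lists, effectors changed in both directions in Lmx1b+/-. Of 17 other effector genes tested, 7 were higher and 5 lower, with a median log2 fold change of 0.06, against -0.03 over all tested genes. Uts2b, which encodes a urotensin II-related peptide, Sncg and Calca were higher, by 1.93, 1.66 and 1.07 (SE 0.27, 0.23 and 0.17). The WT libraries had 21.6, 39.7 and 24.0 CPM of Sncg, and Lmx1b+/- had 68.3, 79.6 and 121.8 CPM. Acetylcholine receptor genes were lower: 8 of 14 tested fell and 0 rose, led by Chrna4, Chrm3 and Chrnb2, which fell by 0.85, 0.69 and 0.55 on the log2 scale (adjusted p = 0.000168, 0.000428 and 0.000699), and the median of the list was -0.68. Among the 7 turnover genes, Ache and Chka were lower, by 0.69 and 0.50 (adjusted p = 0.000932 and 0.00274), and Bche was higher by 0.65 (adjusted p = 0.0339). Of 11 other motor neuron factors only Lmo4 was called, higher by 0.44 (adjusted p = 0.0319), and of 7 progenitor factors Nkx2-2 and Olig2 were lower, by 0.62 and 0.40 (adjusted p = 0.0133 and 0.0357). In the same libraries 2 of 8 Schwann cell genes were lower, among them Sox10 by 0.62, and 2 of 8 sensory ganglion genes tested were lower, among them Avil by 1.24. Of the 13 skeletal muscle genes tested, 4 were higher, Tnnt3 and Mylpf among them, and 1 lower, with sums of 30.1 to 30.8 CPM in Lmx1b+/- and 20.9 to 27.9 CPM in WT. Of 4 cardiac genes tested, Tnnt2 was higher and Myh6 lower, at sums of 5.16 CPM or less in every WT and Lmx1b+/- library.

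In Lmx1b-/- libraries, 0 of the 7 tested members differed from WT by edgeR or DESeq2, and 1, Prph, had an unadjusted p under 0.05. In this comparison edgeR called 0.0184% of the 21729 tested genes, Lmx1b among them, DESeq2 called 0.191%, and 8.09% had an unadjusted p under 0.05. Prph was at 49.2, 50.8 and 34.3 CPM in Lmx1b-/- 1 to 3 (log2 fold change 0.53, SE 0.20, edgeR adjusted p = 0.560), so that WT 2, at 42.8 CPM, lay above Lmx1b-/- 3. Isl1 was at 9.94, 9.53 and 6.57 CPM, with a log2 fold change of 0.76 (SE 0.38, adjusted p = 0.639). Tbx20 was at 8.52, 8.11 and 4.90 CPM (0.58, 95% interval -0.14 to 1.30, adjusted p = 0.689). The acetylcholine genes lay closer to WT. Chat was at 2.07, 2.49 and 2.36 CPM (0.21, 95% interval -0.23 to 0.66, adjusted p = 0.813), Slc18a3 at 12.7, 12.3 and 10.4 CPM (0.11, 95% interval -0.31 to 0.53, adjusted p = 0.911) and Slc5a7 at 28.7, 35.8 and 24.6 CPM (0.34, 95% interval -0.04 to 0.73, adjusted p = 0.663). All 8 members overlapped between Lmx1b-/- and WT, where 18% of all tested genes did not. Isl2 was at 0.355 to 0.535 CPM, against 0.277 to 0.473 CPM in WT, and Mnx1 at 0.149 to 0.161 CPM, within the range of the WT libraries.

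The direct comparison of Lmx1b-/- with Lmx1b+/- also gave 0 members of 7 by edgeR and DESeq2, and 0 had an unadjusted p under 0.05 in edgeR, where edgeR called 25.5% of all tested genes, DESeq2 called 30.7% and 36.8% had an unadjusted p under 0.05. All 8 members overlapped between these genotypes, and 42.4% of all tested genes did not. Isl1 and Prph, higher in Lmx1b+/- than in WT, had log2 fold changes of -0.33 (SE 0.37, adjusted p = 0.561) and -0.26 (SE 0.20, adjusted p = 0.380) here. The widest difference was that of Tbx20, at 0.67 (95% interval -0.06 to 1.39, adjusted p = 0.215), with Lmx1b-/- at a mean of 7.18 ± 1.98 CPM and Lmx1b+/- at 4.49 ± 2.49 CPM (SD, n = 3). Without Lmx1b+/- 3, Mnx1 was tested and called lower. These comparisons share libraries, the Lmx1b+/- or WT group, and are therefore given side by side only. Around the members, Ache and Chka were higher in Lmx1b-/- than in Lmx1b+/- (0.79 and 0.39, adjusted p = 0.000633 and 0.0170), as were 5 of 14 acetylcholine receptor genes, led by Chrm3 and Chrna4 (0.77 and 0.79, adjusted p = 0.000365 and 0.000512). Of 17 effectors 5 were higher and 5 lower, with the heavy neurofilament Nefh higher by 1.19 (adjusted p = 0.000249) and Uts2b and Sncg lower by 1.78 and 1.03 (adjusted p = 0.000420 and 0.00548). Nkx2-2, Olig1 and Olig2 were the 3 progenitor factors called, higher by 0.69, 0.47 and 0.43, and 0 of 11 other motor neuron factors were called by edgeR, with 2 at an unadjusted p under 0.05. Against WT, 0 genes of the motor neuron and acetylcholine lists were called in Lmx1b-/- by edgeR, which called 0.0184% of all tested genes there. At an unadjusted p under 0.05 were 8 of the 17 effectors and 3 of the 14 receptors. In that comparison 8.09% of all tested genes had such a p. Forebrain genes were higher in Lmx1b-/- than in Lmx1b+/- for 5 of 14 tested, Lhx6 and Dlx1 among them (2.40 and 2.99), and lower for 1. The 18 genes of this list summed to 217.2, 113.6 and 86.6 CPM in Lmx1b+/- and to 92.7, 89.3 and 112.2 CPM in Lmx1b-/-. Lhx8 had 39 counts in Lmx1b-/- 1 and at most 7 in the others. Whether these levels bear on the members in Lmx1b-/- was not tested.

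**Figure D3:**
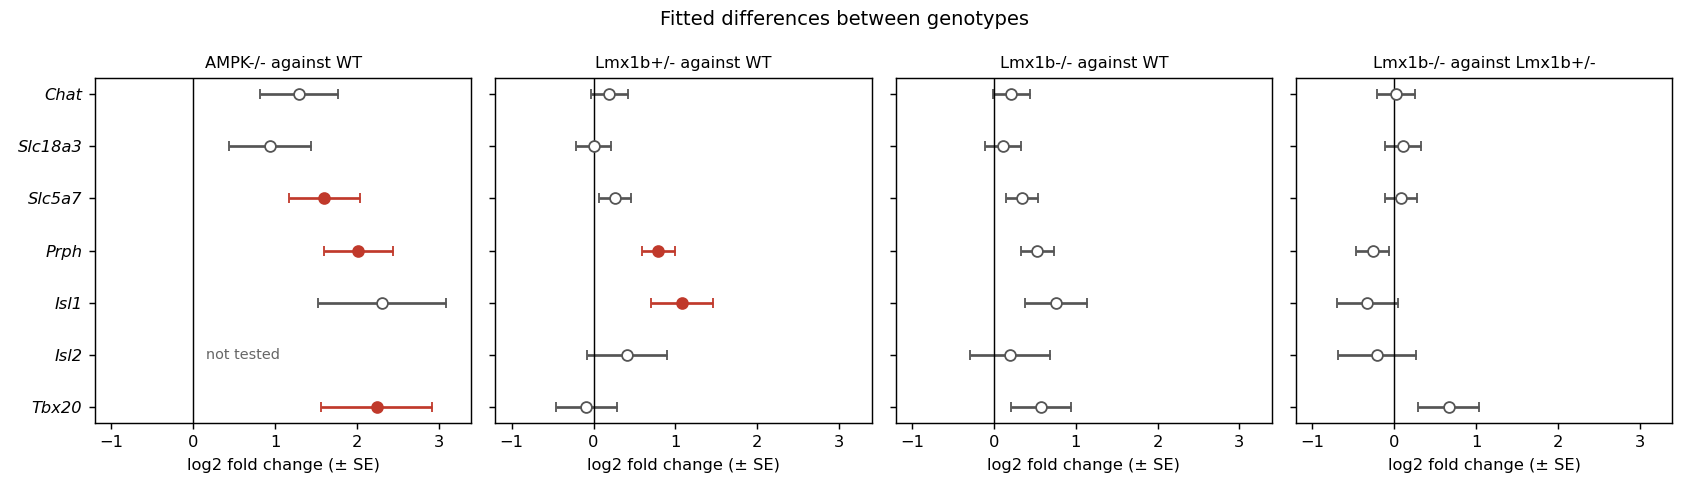
Log2 fold change of each tested member (x axis, bars are ± SE from the edgeR fit) in the 4 comparisons of genotypes; filled red points have an adjusted p under 0.05. Mnx1 was not tested in any comparison and Isl2 not in the AMPK experiment. The 6 values of the AMPK comparison lie between 0.93 and 2.31, and those of the 2 comparisons with Lmx1b-/- between -0.33 and 0.76 with no filled point.

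Chat and Slc18a3, which share 1 locus, kept different proportions in the 2 experiments. The ratio of Chat to Slc18a3 RPKM was taken within each library, so that the separate scaling of the tables does not enter it. It was 0.454, 0.257 and 0.335 in WT 1 to 3 and 0.449, 0.415 and 0.513 in AMPK-/- 1 to 3. In the Lmx1b experiment it was 0.0678, 0.0803 and 0.147 in WT, 0.106, 0.0942 and 0.128 in Lmx1b+/- and 0.0833, 0.104 and 0.116 in Lmx1b-/- libraries. Every library of the AMPK experiment was above every prenatal one, and within the experiments the genotypes overlapped. The value of WT 2 rests on 1 and 2 counts and that of AMPK-/- 3 on 7 and 7, whereas the other 13 libraries had at least 23 Chat and 26 Slc18a3 counts. WT 1 had the lowest levels of both genes in the AMPK experiment, yet its ratio was within the range of the AMPK-/- libraries. The Lmx1b libraries are prenatal, the study's methods speak of mice in the first days after birth without tying that age to the AMPK libraries, and the tables were scaled apart, so age and experiment cannot be told apart and no test was made between them. In the GENCODE M21 annotation the exons of the 2 genes share 0 bases. Gm2990, annotated antisense to Chat with 0 shared exon bases, had 1 to 67 counts in the 13 deep libraries, and the strand setting of the counting is not given in the sources used here, although the kit keeps strand.

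**Figure D4:**
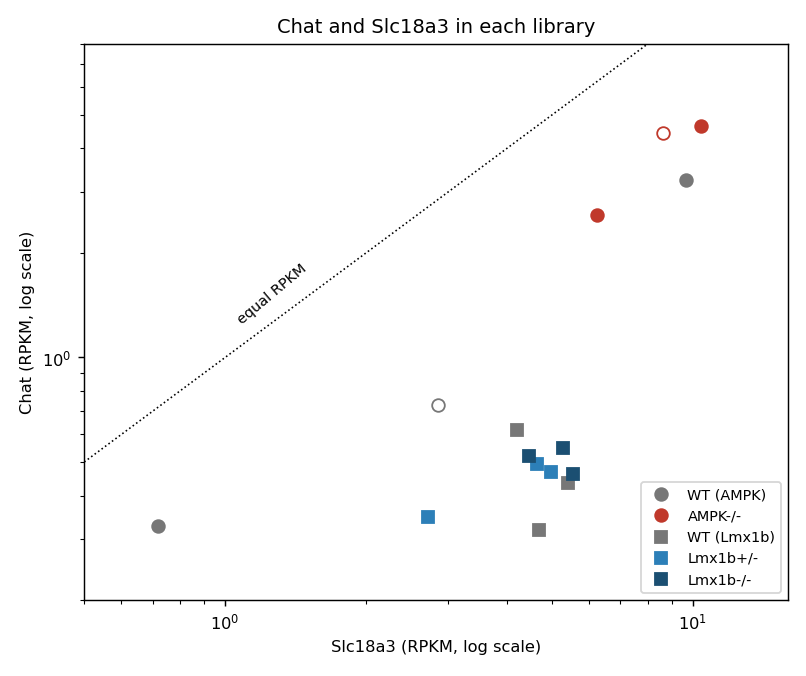
Chat against Slc18a3 in RPKM in each of the 15 libraries, both axes on a log scale, with circles for the AMPK experiment and squares for the Lmx1b experiment. Open circles are the shallow libraries and the dotted line marks equal RPKM. The prenatal libraries lie at Chat to Slc18a3 ratios between 0.0678 and 0.147 and those of the AMPK experiment between 0.257 and 0.513.

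For the other members the ranges of the 2 experiments overlapped, and they are given here side by side without a test. Slc5a7 spanned 6.39 to 132.5 CPM in the AMPK experiment, and 17.1 to 35.8 CPM in the prenatal one. Isl1 spanned 0 to 4.03 CPM in the former and 3.45 to 17.2 CPM in the latter, with a short overlap. Tbx20 was at 0.132 to 3.04 CPM in the 4 deep AMPK libraries, and the prenatal libraries had 1.95 to 8.52 CPM. Prph spanned 3.23 to 68.5 CPM and 24.6 to 58.5 CPM in the same order. Isl2 spanned 0 to 0.875 CPM and 0.180 to 0.774 CPM, and Mnx1 0 to 3.02 CPM and 0.0703 to 0.724 CPM. WT 1 of the AMPK experiment lay below all prenatal libraries for Slc5a7, Prph, Isl1 and Tbx20. It did so for Slc18a3 too, and narrowly for Chat, at 1.51 CPM against 1.55 CPM or more. Its Isl2 level of 0.198 CPM was above the lowest prenatal value. Its 0 counts of Mnx1 allow up to 0.198 CPM, which is within the prenatal range.

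Across the 9 libraries of the Lmx1b experiment, Isl1 and Chat kept company with different genes. By the Pearson correlation of log2 (CPM + 0.5) over 17123 genes with a mean of at least 1 CPM, the 5 genes most like Isl1 were Cd81, Cthrc1, Cpq, Lhx3 and 5430403G16Rik, with r from 0.954 to 0.975. Lhx3, a LIM homeodomain factor of somatic motor neurons and V2 interneurons, was at 1.44, 2.08 and 1.10 CPM in WT, 1.52, 2.52 and 4.65 CPM in Lmx1b+/- and 2.49, 2.32 and 2.01 CPM in Lmx1b-/- libraries, with its highest value in the same library as Isl1. Among the members, Prph had an r of 0.879 with Isl1 and ranked 107th, Slc5a7 one of 0.762, Tbx20 one of 0.671, Chat one of -0.03 and Slc18a3 one of -0.18. The genes most like Chat were Gm38286, Rerg, Tbl3, Nfe2l3 and ENSMUSG00000121832, with r from 0.896 to 0.928, and Slc18a3 had an r of only 0.240 with Chat and ranked 3761st. These values are descriptions over 9 libraries that share genotype groups, dissection and scaling, and the level of Chat moved over a narrow range, from 1.55 to 2.79 CPM.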

How the data were processed

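Brainstem polyA RNA was sequenced in 15 libraries with a directional kit, and per the submitters' processing notes aligned with HISAT2 to GRCm39. The authors deposited raw counts per Ensembl gene and RPKM for each experiment, without replicates pooled. The strand setting and the use of molecular indexes in counting are not given in the sources used here. Symbols were matched for 51884 of 57180 identifiers. Counts were fitted with edgeR 4.0.16 (R 4.3.3; TMM, filterByExpr, quasi-likelihood test, genotype as the only term), over all genes of each table, with Benjamini-Hochberg adjustment and a threshold of 0.05. SE come from that fit, and 95% intervals are normal intervals around its estimates. The 2 tables were normalized separately, so no test was made between them. The deposited RPKM served comparisons between genes. DESeq2 1.42.0, limma 3.58.1 on log2(RPKM + 1) and log2(RPKM + 0.1), other scalings and filters, a replicate block and leaving out libraries were tried. The code was tested on simulated data. Promoter windows are RefSeq's (GRCm38.p6); all 8 members matched. The genes most like Chat and Isl1, and the 3 called genes of smallest adjusted p of each list, were named by rule; some of the latter are not reported here. The members and lists were chosen with earlier results of these data known. Replicates were compared over 15 pairs, and 0 were identical. In the Lmx1b experiment WT 3 stood apart from WT 1 and 2. The chi-square per gene between their counts was 268.1 and 208.1, against 8.66 to 86.8 in the other replicate pairs of that experiment. With any 1 of the 9 libraries left out, 3 to 11 genes and 0 members were called in Lmx1b-/- against WT.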

Additional observations from a re-analysis of the deposited data

How the results depend on the processing

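Of 514 log2 fold changes recomputed for members under alternatives, 27 changed sign, and 0 of these were of values called as reported. For AMPK-/- against WT, 3 members were called with TMM, and also with RLE and upper quartile scaling. The number was 6 with every gene that had any count, 1 with at least 10 counts in every library (where 1 member was tested), 0 with DESeq2, 0 with limma on log2(RPKM + 1) and 0 on log2(RPKM + 0.1), 5 at an adjusted p under 0.1, 0 without both shallow libraries, and 1 to 6 when 1 library was left out. For Lmx1b+/- against WT, 2 were called, against 1 with DESeq2, 1 with limma on either scale, and 1 to 3 with 1 library left out. For Lmx1b-/-, 0 were called against WT and 2 (Isl1 and Prph) with every gene that had any count. Against Lmx1b+/-, 0 were called, with 1 (Tbx20) under that filter and 0 to 1 with 1 library left out. The cause was not tested. With the replicate block 5 members were called in AMPK-/-, and 2, 0 and 0 in the other comparisons. Same-numbered libraries did not deviate together (r from -0.121 to 0.0476 and from -0.177 to 0.148). With 3 libraries per genotype, and shallow ones in the AMPK experiment, these values cannot show whether the numbers pair the libraries.

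The sign changes were of differences that had not been called, in Lmx1b+/- against WT and in the 2 comparisons with Lmx1b-/-. Not all were near 0: Isl1 and Isl2 in Lmx1b-/- against Lmx1b+/- were at -0.33 and -0.21 as reported (SE 0.37 and 0.48). In Lmx1b+/-, Slc18a3 came to -0.019 with upper quartile scaling, -0.22 by library size only, -0.0074 with any count, -0.0023 with at least 10 counts, -0.20 and -0.25 with limma, and -0.016 with the replicate block, and it ran from -0.18 to 0.23 with 1 library left out. Chat came to -0.075 by library size only and to -0.017 and -0.029 with limma, and Tbx20 ran from -0.55 to 0.26. In Lmx1b-/- against WT, Slc18a3 ran from -0.097 to 0.25. Against Lmx1b+/-, limma on log2(RPKM + 0.1) gave 0.013 for Isl1 and 0.065 for Isl2, and with 1 library left out Chat ran from -0.12 to 0.18, Slc18a3 from -0.11 to 0.27, Slc5a7 from -0.077 to 0.20, Isl1 from -0.67 to 0.17 and Isl2 from -0.65 to 0.091. By Spearman's rho, 2 of the 5 genes most like Chat and 3 of the 5 most like Isl1 stayed among the first 5. Median counts of 3 and 4 per tested gene in the shallow libraries limit the AMPK comparison.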
